A study of Mus musculus with 35 samples.

Results

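Interferon response genes are genes whose transcription rises when a cell is exposed to interferon, and 50 of them, taken from a named list, were followed here in mouse liver. All 50 were found in the count table of 55413 genes, and all 50 had enough counts to be among the 15297 genes tested. The RNA came from livers of 21 mice labelled C57Bl6, 1 column of counts per mouse, and was measured by sequencing the 3' ends of polyadenylated transcripts. The 5 untreated mice received nothing and were harvested at day 260 after birth. The other 16 mice all received diethylnitrosamine (DEN, a liver carcinogen) once, at 25 mg/kg into the peritoneum on day 14. Of these, 4 were harvested at day 133 without further treatment and are called P133. The remaining 12 were injected 2 times weekly from day 133 with 50 mg/kg of an antisense oligonucleotide (ASO, synthetic nucleic acid that binds an RNA by base pairing) and harvested at day 260, 6 with a control ASO and 6 with an ASO against Smyd3, a lysine methyltransferase gene. The labels name the DEN samples as tumours and the untreated samples as normal liver, no group received DEN alone to day 260, and an effect of DEN therefore cannot be told apart from one of the injected ASO in the day 260 mice.

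Interferons are secreted proteins, and those of type I and type III are released when a cell senses foreign or misplaced nucleic acid. Type I and type III interferons act through receptors coupled to the kinases Jak1 and Tyk2 and through a complex that contains Stat2 and Irf9 and binds the interferon-stimulated response element in promoters of its target genes. Interferon gamma, which T cells and natural killer cells make, acts through the gamma-activated site and through Irf1, and in the liver both routes reach hepatocytes as well as resident macrophages.

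Levels below are in CPM, the usual read count scaled to a common library total, here corrected for library composition, and changes are on the log2 scale, fitted with edgeR, each with its standard error (SE). A gene is said to have risen or fallen when its p-value, adjusted over all 15297 genes, was at or under 0.05. Total counts per mouse ran from 4556484 to 20258619, with the lowest totals in the P133 group. Smyd3 itself, the targeted gene, had a level of 0.325 ± 0.289 CPM (SD) in the 6 Smyd3-ASO mice and 3.87 ± 0.598 in the 6 control-ASO mice, without overlap. Hepatocyte markers were abundant in every group, with a summed level of 26652 to 52317 CPM in Smyd3-ASO, 62255 to 89886 in control-ASO, 45754 to 47716 in P133 and 70894 to 118428 in untreated mice. In bulk tissue, fewer cells of a type and less RNA per cell cannot be told apart.

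Promoter sequence was available for 34 of the 50 genes (RefSeq, build GRCm38.p6, 250 bases before to 50 after the start site). The core of the interferon-stimulated response element, read as GAAA, any pair of letters and GAAA, was searched for on both strands. It was present in 20 of these 34 genes (58.8%, exact Clopper-Pearson 95% interval 40.7 to 75.4%) and in 3.99% of all 27025 genes. A gene was counted when any of its windows held a match, with 32851 windows in all. The gamma-activated site, TTCNNNGAA, was present in 9 of 34 (26.5%; 12.9 to 44.4%) and in 9.55% of all genes. The searches allowed the motifs to overlap. Stretches of 60 bases around the matches are shown for some genes of the comparisons below, chosen among those that held a match. Each runs 5′ to 3′ along its gene's strand with the matched letters in capitals. The capitals mark the response element core, which reads TTTC in place of GAAA where it lies on the opposite strand, except in Irf1, where they mark the gamma-activated site. The stretches are Bst2 at chr8:71537565-71537624 on the minus strand, Ifit1 at chr19:34640769-34640828 (plus), Ifit3 at chr19:34583365-34583424 (plus), Ifit3b at chr19:34607761-34607820 (plus), Rsad2 at chr12:26456538-26456597 (minus), Gbp3 at chr3:142559977-142560036 (plus), Socs1 at chr16:10785582-10785641 (minus) and Irf1 at chr11:53769898-53769957 (plus).
Bst2: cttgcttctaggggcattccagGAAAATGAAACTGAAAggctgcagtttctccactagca
Ifit1: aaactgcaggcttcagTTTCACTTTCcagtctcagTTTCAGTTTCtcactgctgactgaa
Ifit3: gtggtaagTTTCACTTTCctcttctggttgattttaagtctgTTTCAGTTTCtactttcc
Ifit3b: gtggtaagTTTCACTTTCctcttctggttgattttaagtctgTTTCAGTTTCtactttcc
Rsad2: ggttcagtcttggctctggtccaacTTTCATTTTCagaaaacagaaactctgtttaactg
Gbp3: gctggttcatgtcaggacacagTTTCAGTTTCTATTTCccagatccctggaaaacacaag
Socs1: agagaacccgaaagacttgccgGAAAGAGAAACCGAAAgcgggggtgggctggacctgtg
Irf1: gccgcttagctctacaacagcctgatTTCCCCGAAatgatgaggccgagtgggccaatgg
The stretches of Ifit3 and Ifit3b, neighbouring copies of 1 gene, were identical over all 60 bases. Of the 15 members that rose under Smyd3-ASO against control ASO, 12 had a window and 8 of these held the core, and of the 32 members that did not pass there, 21 had a window and 11 held it. The members that rose and had a window without the core were Irf9, Oasl2, Ifi35 and Ubd. A match describes letters in a window and is not a measured binding site.

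To see which mice shared a high interferon state, each member's log2 CPM was set against its mean in the untreated mice and averaged over the 50 members for each mouse. Smyd3-ASO mice 1 to 6 stood at 1.09, 1.20, 0.92, 0.17, 0.69 and 1.04 on this log2 scale. Control-ASO mice 1 to 6 stood at -0.07, 0.32, -0.04, 0.46, 0.51 and 0.66. By this mean Smyd3-ASO mice 1, 2, 3, 5 and 6 were the 5 highest of the 21 mice, and mouse 4 lay among the control-ASO mice, below 4 of them. Untreated mice 1 to 5 stood at 0.28, -0.19, -0.09, 0.02 and -0.02, and P133 mice 1 to 4 at -0.32, -0.23, 0.05 and -0.08. The group means were 0.852 ± 0.377 (SD, n = 6) under Smyd3-ASO, 0.306 ± 0.301 (n = 6) under control ASO and -0.143 ± 0.164 (n = 4) in P133. Scaled by library totals they were 1.66, 1.09 and 0.401, so that the P133 mean changed sign. Control-ASO mouse 6 then lay above Smyd3-ASO mice 3 and 5. The order also depended on the mean. By the median over the 50 members, with composition scaling, Smyd3-ASO mouse 5 stood at 0.35, below control-ASO mouse 6 at 0.42. Smyd3-ASO mouse 4 stood at -0.17 by that median, below all untreated mice, the lowest of which was at -0.13. These levels describe genes chosen with earlier results known and carry no test.

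**Figure D1:**
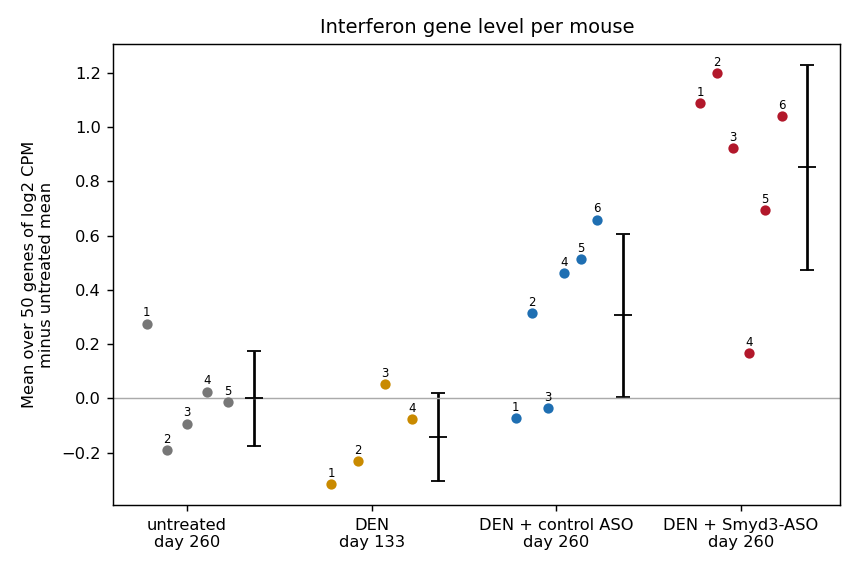
Mean over the 50 interferon response genes of log2 CPM minus the untreated mean (vertical axis), 1 numbered point per mouse in each of the 4 groups, with the group mean and SD as a bar beside the points. Smyd3-ASO mice 1, 2, 3, 5 and 6 lie highest, at 0.69 to 1.20, while Smyd3-ASO mouse 4, at 0.17, lies within the range of the control-ASO mice.

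The same mice recurred over many members. Smyd3-ASO mouse 4 was the lowest of its group in 32 of the 50 members and the highest in 0. The highest place in that group was taken 14 times by mouse 6, 13 by mouse 1, 10 by mouse 2, 8 by mouse 3 and 5 by mouse 5. In the control-ASO group mouse 6 was highest in 23 members and mice 1 and 3 were each lowest in 17. In P133 mouse 3 was highest in 30 of 50. Such places were not counted over all genes tested. Whether the recurrence of these mice is particular to the interferon genes was therefore not tested. Averaging the Ifit family alone gave 2.00, 2.12 and 1.67 in Smyd3-ASO mice 1, 2 and 6 against 0.72, 0.18 and 0.94 in mice 3, 4 and 5. The GTPase families had another order, with mouse 3 highest at 1.34, then mice 2 and 6 at 1.30 and 1.27, and mouse 4 lowest at 0.35. For the 5 sensors the 6 mice lay between -0.32 and 0.25, within the untreated range of -0.22 to 0.32 except for mice 4, 5 and 6, which lay below it.

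**Figure D2:**
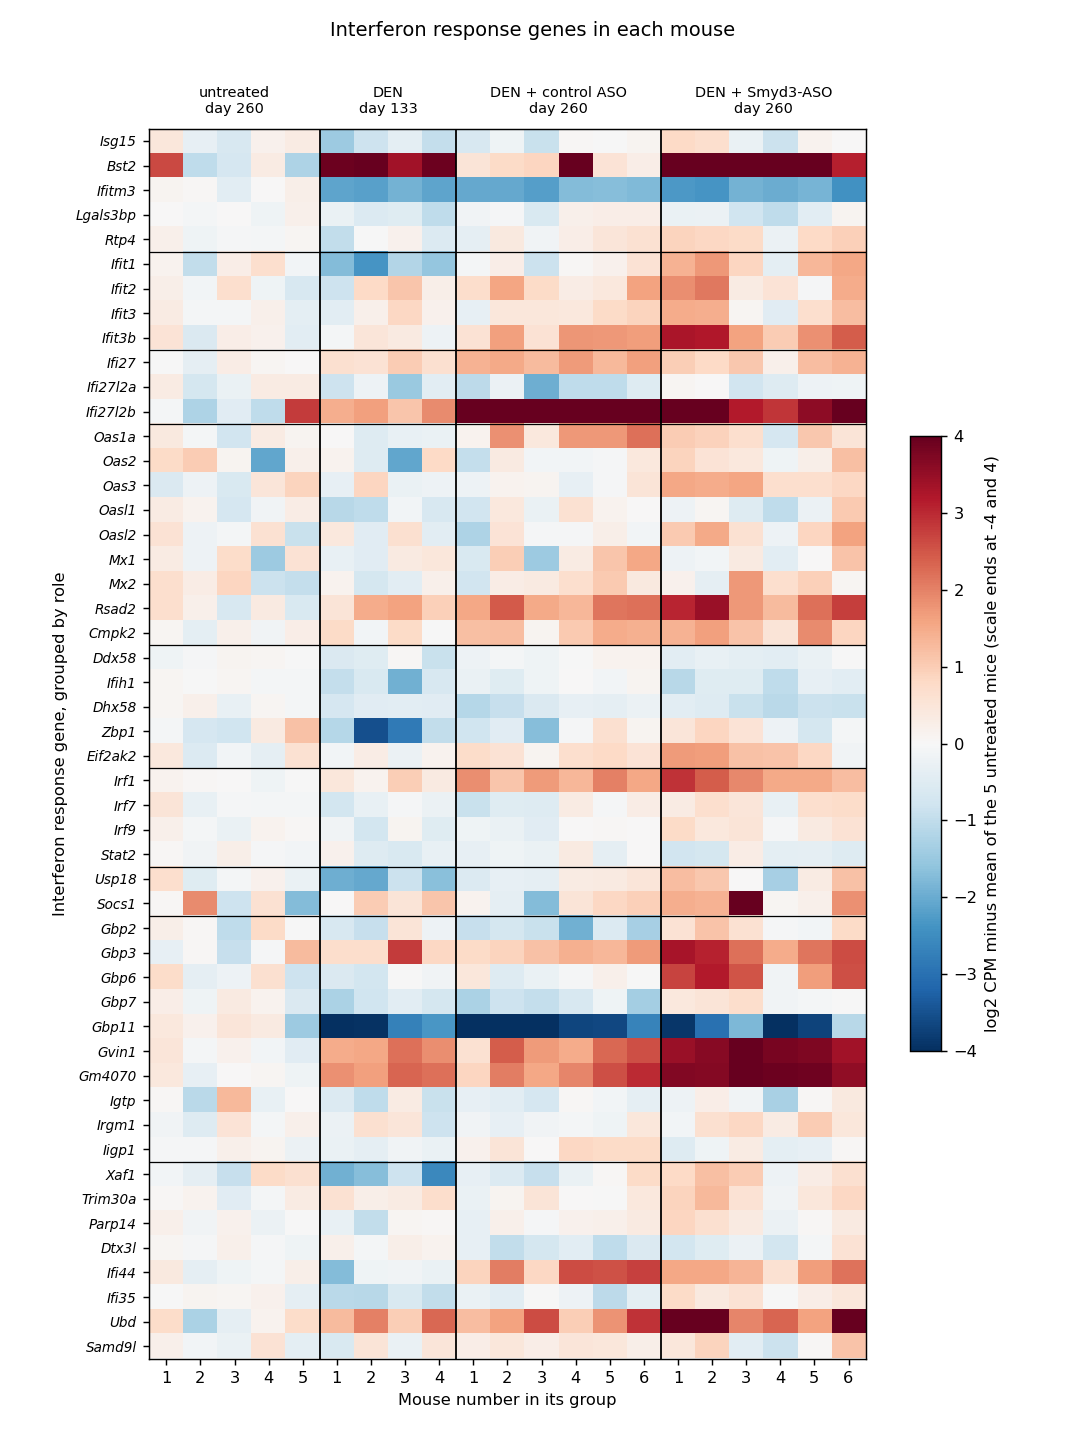
Heat map of the 50 interferon response genes (rows, grouped by role) in 21 mice (columns, by group and mouse number), coloured by log2 CPM minus the mean of the 5 untreated mice, with colours ending at -4 and 4. Smyd3-ASO mouse 4 is the lowest of its group in 32 rows, and Ifitm3 and Gbp11 lie below the untreated mean in all 16 DEN mice.

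Cell type markers were read in the same mice. Hepatocyte markers summed to 27990, 26652 and 27344 CPM in Smyd3-ASO mice 1, 2 and 6 and to 41309, 52317 and 40015 in mice 3, 4 and 5. The 7 monocyte and macrophage markers summed to 145, 152 and 123 CPM in mice 1, 2 and 6 and to 86.3, 111 and 103 in mice 3, 4 and 5. The 6 plasmacytoid dendritic cell markers summed to 45.4, 64.7 and 64.7 CPM in mice 1, 2 and 6 and to 4.76, 5.53 and 11.2 in mice 3, 4 and 5, against 12.7 to 68.6 in control-ASO mice, 2.69 to 5.10 in P133 and 0.779 to 3.19 in untreated mice. The same mice of the Smyd3-ASO group were thus high in both sums. Most of the plasmacytoid dendritic cell sum was a single gene, Ly6d, with its values given below, so this split was largely that of Ly6d. Mouse 4, low in interferon genes, thus had the most hepatocyte marker RNA of its group. It also had the highest sums of its group for 6 Kupffer cell markers (353 CPM) and 8 natural killer and cytotoxic cell markers (6.29 CPM), and the lowest for 8 T cell markers (15.5 CPM). Mouse 3 had a neutrophil marker sum of 103 CPM against 8.12 to 26.8 in the other 5. The part of cell composition in these levels was not tested.

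Under Smyd3-ASO against control ASO, which compares DEN livers of the same age with and without loss of Smyd3 RNA, 15 of the 50 members rose, 3 fell and 32 did not pass. Over all genes tested 26.1% were called, 13.3% up and 12.9% down. The median change of the members was 0.52 on the log2 scale against 0.01 over all genes tested. In 6 members every Smyd3-ASO mouse lay above every control-ASO mouse, and in 1 every mouse lay below, against 5.27 and 5.83% of all genes. By role, 7 of 10 GTPases rose and 1 fell, while 1 of 5 secreted or membrane effectors, 1 of 4 Ifit genes, 2 of 9 in the Oas, Mx and viperin group, 1 of 4 transcription factors, 1 of 2 feedback inhibitors and 2 of 8 other induced genes rose. Of the 3 Ifi27 genes 1 fell, and of the 5 sensors 1 fell.

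No ligand could be followed. Of 18 interferon genes on a fixed list, 13 had 0 counts in all 21 mice and the other 5 had 16 counts between them, 8 from Ifng, so none passed the filter. Over the 229356552 counts of all mice, 0 counts leave room for up to 0.0131 CPM (3 counts), a limit for counting error only. In Smyd3-ASO over control ASO, 3 of 9 receptors and Jak kinases fell and 0 rose, where 12.9% of all genes tested fell and 13.3% rose. Ifngr1, a chain of the interferon gamma receptor, stood at 10.1 to 20.4 CPM in Smyd3-ASO mice and 21.7 to 35.5 in control-ASO mice (log2 -0.99, SE 0.18, adjusted p = 0.00179). Jak1 fell by 0.86 on the log2 scale (SE 0.19), also without overlap. Ifnlr1, the receptor chain for type III interferon, fell by 1.70 (SE 0.52) at 0.36 ± 0.259 against 1.24 ± 0.806 CPM (SD, n = 6 each), which did not pass without Smyd3-ASO mouse 4, control-ASO mouse 4 or control-ASO mouse 6 (adjusted p up to 0.0825) or with a replicate block (0.112). Ifnar1, a chain of the type I receptor, was at -0.73 (SE 0.29, adjusted p = 0.0743). Against untreated livers the list of 9 went otherwise. Under control ASO 5 rose and 0 fell, where 23.7% of all genes tested rose and 22.2% fell. Under Smyd3-ASO 3 rose and 1 fell, where 24.4% rose and 23.2% fell.

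Among the transcription factors, Irf9, a DNA-binding part of that complex (chromosome 14), stood at 49.5, 38.6, 41.1, 28.2, 37.3 and 43.7 CPM in Smyd3-ASO mice 1 to 6. Control-ASO mice had 25.9, 23.8, 21.3, 29.0, 29.8 and 29.0 CPM. Of the Smyd3-ASO mice only mouse 4 lay among the controls, and Irf9 rose (log2 0.58, SE 0.14, adjusted p = 0.00894). Irf1, a factor induced by interferon gamma, ran from 35.3 to 112 CPM in Smyd3-ASO mice and from 32.5 to 60.3 in control-ASO mice (log2 0.41, SE 0.26, adjusted p = 0.261), with mouse 1 highest. Irf7, the factor that amplifies type I interferon, was at 0.61 (SE 0.23, adjusted p = 0.0564) and passed with DESeq2 (0.0379) and with all 4 groups in 1 fit (0.0245). Of 5 other Stat and Irf factors 0 rose and 2 fell, against 13.3 and 12.9% of all genes tested. Irf2, an antagonist of Irf1, fell by 0.53 (SE 0.13) and Irf5 by 0.74 (SE 0.24). The call of Irf5 ended without any 1 of 9 mice (adjusted p up to 0.0812).

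Bst2 (chromosome 8, 71534255 to 71537456, minus strand), which encodes tetherin, a membrane protein that holds budding virus at the cell surface, had the largest change of the members in this comparison. Smyd3-ASO mice 1 to 6 had 491, 440, 355, 336, 261 and 36.4 CPM. Control-ASO mice 1 to 6 had 5.86, 7.07, 7.55, 82.4, 6.01 and 4.87. Mouse 6 of the first group and mouse 4 of the second crossed, so the groups overlapped, and Bst2 rose by log2 4.07 (SE 0.91, adjusted p = 0.00743). Without control-ASO mouse 4 the change was 5.66. Isg15, the ubiquitin-like modifier, was at 0.40 (SE 0.26, adjusted p = 0.27), with 10.1 to 32.6 CPM in Smyd3-ASO mice and 10.1 to 20.1 in control-ASO mice.

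The GTPases, which assemble on the membranes of intracellular pathogens, held 7 of the 15 members that rose. Gbp2 stood at 4.15, 6.22, 4.28, 2.61, 2.50 and 4.80 CPM in Smyd3-ASO mice 1 to 6 and at 1.36, 1.63, 1.38, 0.589, 1.83 and 0.974 in control-ASO mice, without overlap (log2 1.65, SE 0.30, adjusted p = 0.00146). Gbp7 rose by 1.10 (SE 0.22), also without overlap, at 11.7 to 20.9 against 4.87 to 11.5 CPM. Gbp3 rose by 1.46 (SE 0.33), with only mouse 4, at 1.59 CPM, inside the control range of 0.886 to 1.87. Gbp6 (chromosome 5) had 51.3, 70.1, 44.4, 6.91, 24.7 and 47.2 CPM in Smyd3-ASO mice 1 to 6 against 5.31 to 10.5 in control-ASO mice (log2 2.39, SE 0.42, adjusted p = 0.00171). Here too mouse 4 alone lay inside the control range. Of 50-base words in the last 500 bases of its transcripts, 88.9% also occur in other genes, most often in the overlapping gene Gm43302, so its reads may not be separable from theirs.

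Gvin1 and Gm4070, which encode very large interferon-inducible GTPases and lie on chromosome 7, were high in all 6 Smyd3-ASO mice. Smyd3-ASO mice 1 to 6 had 36.1, 41.3, 52.9, 46.1, 44.0 and 34.4 CPM of Gvin1. Control-ASO mice had 4.98, 17.9, 10.7, 9.25, 16.1 and 19.8. The groups did not overlap (log2 1.69, SE 0.27, adjusted p = 7.59e-04), and mouse 4, low in most members, had the second highest level. Gm4070 rose by 1.67 (SE 0.28), but all 50-base words at the end of Gvin1 also occur in other genes, most often in Gm4070. The ratio of the 2 levels was 0.821 to 1.49 in all mice, so they were counted here as 2 members of doubtful independence. Irgm1, an immunity-related GTPase, rose by 0.62 (SE 0.20, adjusted p = 0.0363), but after removal of any 1 of 8 mice it did not pass (up to 0.0787), nor with limma voom (0.0509), a replicate block (0.0784) or equal depths (0.0822). Iigp1, another of that family, went the other way, at 125 to 226 CPM in Smyd3-ASO mice and 182 to 320 in control-ASO mice (log2 -0.69, SE 0.18, adjusted p = 0.0139). Gbp11, annotated as a polymorphic pseudogene, was at 1.43 (SE 0.66, adjusted p = 0.126).

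Among the antiviral effectors, Ifit1, which binds viral RNA that lacks host cap marks, had 18.1, 22.7, 12.5, 5.09, 17.2 and 20.2 CPM in Smyd3-ASO mice 1 to 6. Control-ASO mice had 6.34, 8.21, 3.65, 7.07, 7.62 and 10.1. All Smyd3-ASO mice but mouse 4 lay above all control-ASO mice, and Ifit1 rose by 1.13 (SE 0.31, adjusted p = 0.0165), a call that ended with limma voom (adjusted p = 0.0543). Ifit3b, a neighbour on chromosome 19 with the promoter stretch shown above, had 20.9, 20.1, 6.6, 4.25, 7.68 and 11.8 CPM against 3.14 to 7.23 and did not pass (log2 1.05, SE 0.39, adjusted p = 0.0643). It passed with DESeq2 (adjusted p = 0.0256), with all 4 groups in 1 fit (0.0209) and without Smyd3-ASO mouse 4 (0.0232). The synthetase Oas3, whose product signals to an RNA-degrading enzyme, stood at 0.999 to 2.06 CPM against 0.421 to 0.893, without overlap (log2 1.33, SE 0.31, adjusted p = 0.00679). Oasl2 rose by 1.07 (SE 0.33, adjusted p = 0.0291), but not with limma voom (0.0657) and not without any 1 of Smyd3-ASO mice 2 and 6 and control-ASO mice 4 and 6 (up to 0.0677). Rsad2, the viperin gene, ran from 10.4 to 48.0 CPM against 10.9 to 23.6 (log2 0.67, SE 0.34, adjusted p = 0.164), with mice 1, 2 and 6 above all controls. The 2 Mx genes did not pass.

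Ubd, which encodes the ubiquitin-like modifier FAT10 (chromosome 17), parted the Smyd3-ASO mice. Mice 1, 2 and 6 had 27.6, 31.2 and 20.9 CPM and mice 3, 4 and 5 had 1.46, 1.95 and 1.12. Control-ASO mice 1 to 6 had 0.818, 1.13, 2.39, 0.673, 1.29 and 3.00 CPM. Ubd rose (log2 3.18, SE 0.91, adjusted p = 0.0242) on the level of those 3 mice, and the call ended with limma voom (2.16, adjusted p = 0.206), without the filter on low counts (0.0623), with a replicate block (2.43, 0.0965) and without Smyd3-ASO mouse 2 or control-ASO mouse 4 (up to 0.0514). Ifi35, a small induced protein, rose more evenly, with 17.1 to 29.6 CPM against 8.38 to 17.1 and no overlap (log2 0.78, SE 0.17, adjusted p = 0.00454).

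Feedback inhibitors damp the response. Usp18, which removes Isg15 and blocks the type I receptor, had 13.0, 11.7, 5.52, 2.04, 6.87 and 12.3 CPM in Smyd3-ASO mice 1 to 6 against 3.61 to 7.71 in control-ASO mice (log2 0.59, SE 0.38, adjusted p = 0.258). As with Ubd and Rsad2, mice 1, 2 and 6 lay above all controls. For Usp18 mouse 4 lay below them, as for Rsad2, whereas for Ubd it lay among them. Without mouse 4 the change was 0.80 and passed (adjusted p = 0.0477). Socs1, an inhibitor of Jak kinases, had 37.6 CPM in Smyd3-ASO mouse 3 and 0.443 to 1.90 in the other 5, against 0 to 0.974 in control-ASO mice. It was called (log2 3.68, SE 1.25, adjusted p = 0.0487), but without mouse 3 it was at 0.96 (adjusted p = 0.221), with limma voom at 1.93 (0.302), with a replicate block at 1.70 (0.293) and with equal depths at 3.31 (0.0954). Its call also ended without the filter (0.112) and without any 1 of the 6 control-ASO mice. Of 9 other negative regulators 1 rose, where 13.3% of all genes tested rose. It was the phosphatase gene Ptpn2 (log2 1.30, SE 0.41), a call that ended with limma voom (adjusted p = 0.0666) and other settings. Next came the phosphatase gene Ptpn6, which did not pass (log2 0.53, SE 0.21, adjusted p = 0.0779) except with all 4 groups in 1 fit (0.0319).

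**Figure D3:**
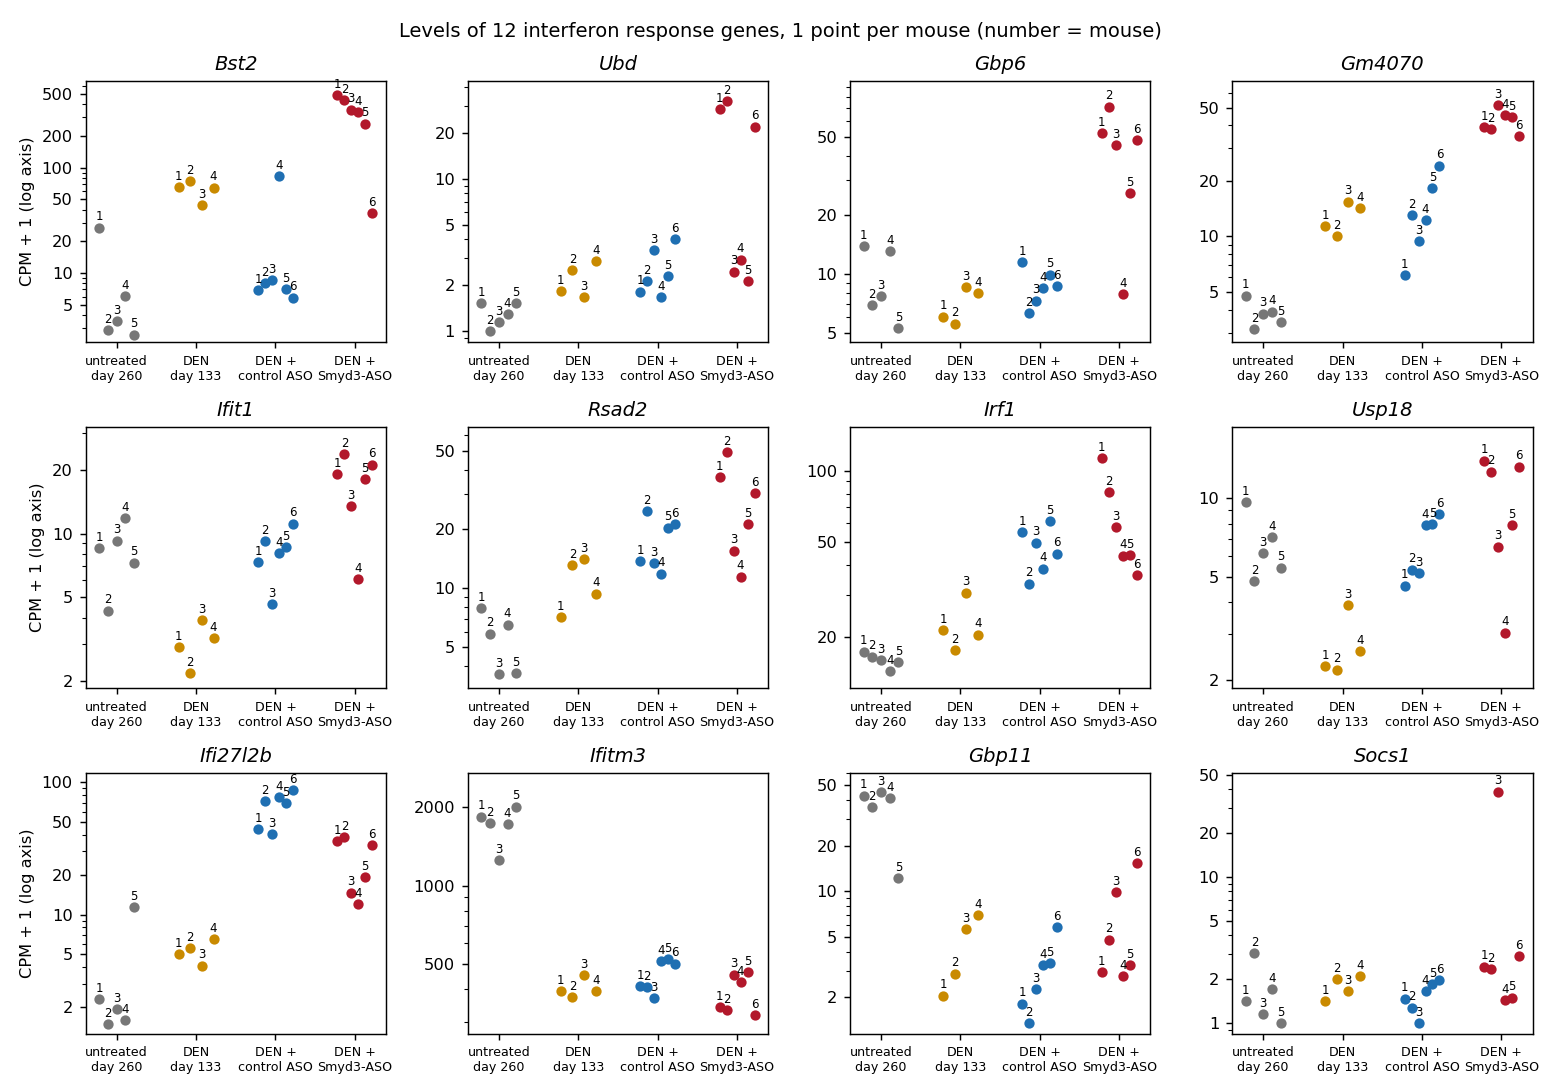
Levels of 12 interferon response genes in each mouse, as CPM plus 1 on a log axis, 1 numbered point per mouse in the 4 groups. Ubd parts Smyd3-ASO mice 1, 2 and 6, at 20.9 to 31.2 CPM, from mice 3, 4 and 5, at 1.12 to 1.95, while Socs1 is high in mouse 3 alone and Ifitm3 is lower in all 16 DEN mice than in all 5 untreated mice.

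Of the 3 members that fell, 1 did so without overlap. Ifi27l2b, of the Ifi27 family of small membrane proteins (chromosome 12), had 35.1, 37.3, 13.6, 11, 18.2 and 32.6 CPM in Smyd3-ASO mice 1 to 6. Control-ASO mice had 43.2, 71.4, 39.5, 76.1, 68.6 and 86.7, without overlap (log2 -1.39, SE 0.32, adjusted p = 0.00685). Ifi27, of the same family, was at -0.49 (SE 0.18, adjusted p = 0.0509) and passed with DESeq2 (0.0331), limma voom (0.0446), all 4 groups in 1 fit (0.0243) and equal depths (0.0467). Ifih1, which encodes the double-stranded RNA sensor MDA5, fell by 0.49 (SE 0.17, adjusted p = 0.0438), but not after removal of any 1 of 9 mice (up to 0.096), with library totals (0.0803), without the filter (0.0972), with a replicate block (0.0704) and with equal depths (0.0625). Of 11 upstream sensors and adaptors outside the list, Myd88 and Traf6 rose (log2 1.15 and 0.67) and Mavs, the mitochondrial adaptor of the RNA sensors, fell (-0.64, SE 0.17). Over all genes tested 13.3% rose and 12.9% fell. The calls of Myd88 and Traf6 ended without single mice (adjusted p up to 0.0722 and 0.0699) and with a replicate block (0.0882 and 0.0857).

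Of the 15 members that rose, 10 kept the call under every alternative that was run, namely Bst2, Oas3, Irf9, Gbp2, Gbp3, Gbp6, Gbp7, Gvin1, Gm4070 and Ifi35. Ifi27l2b and Iigp1 did so among the 3 that fell. No alternative changed how reads were assigned to genes, which leaves the doubt over Gbp6, Gvin1 and Gm4070 as it was. Irf9 and Gbp7 also overlap an annotated gene on the same strand, Rnf31 and Gm43802. Leaving out single mice, the number that rose ran from 12 to 21, the highest without Smyd3-ASO mouse 4, and the number that fell from 2 to 6, the highest without Smyd3-ASO mouse 6.

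**Figure D4:**
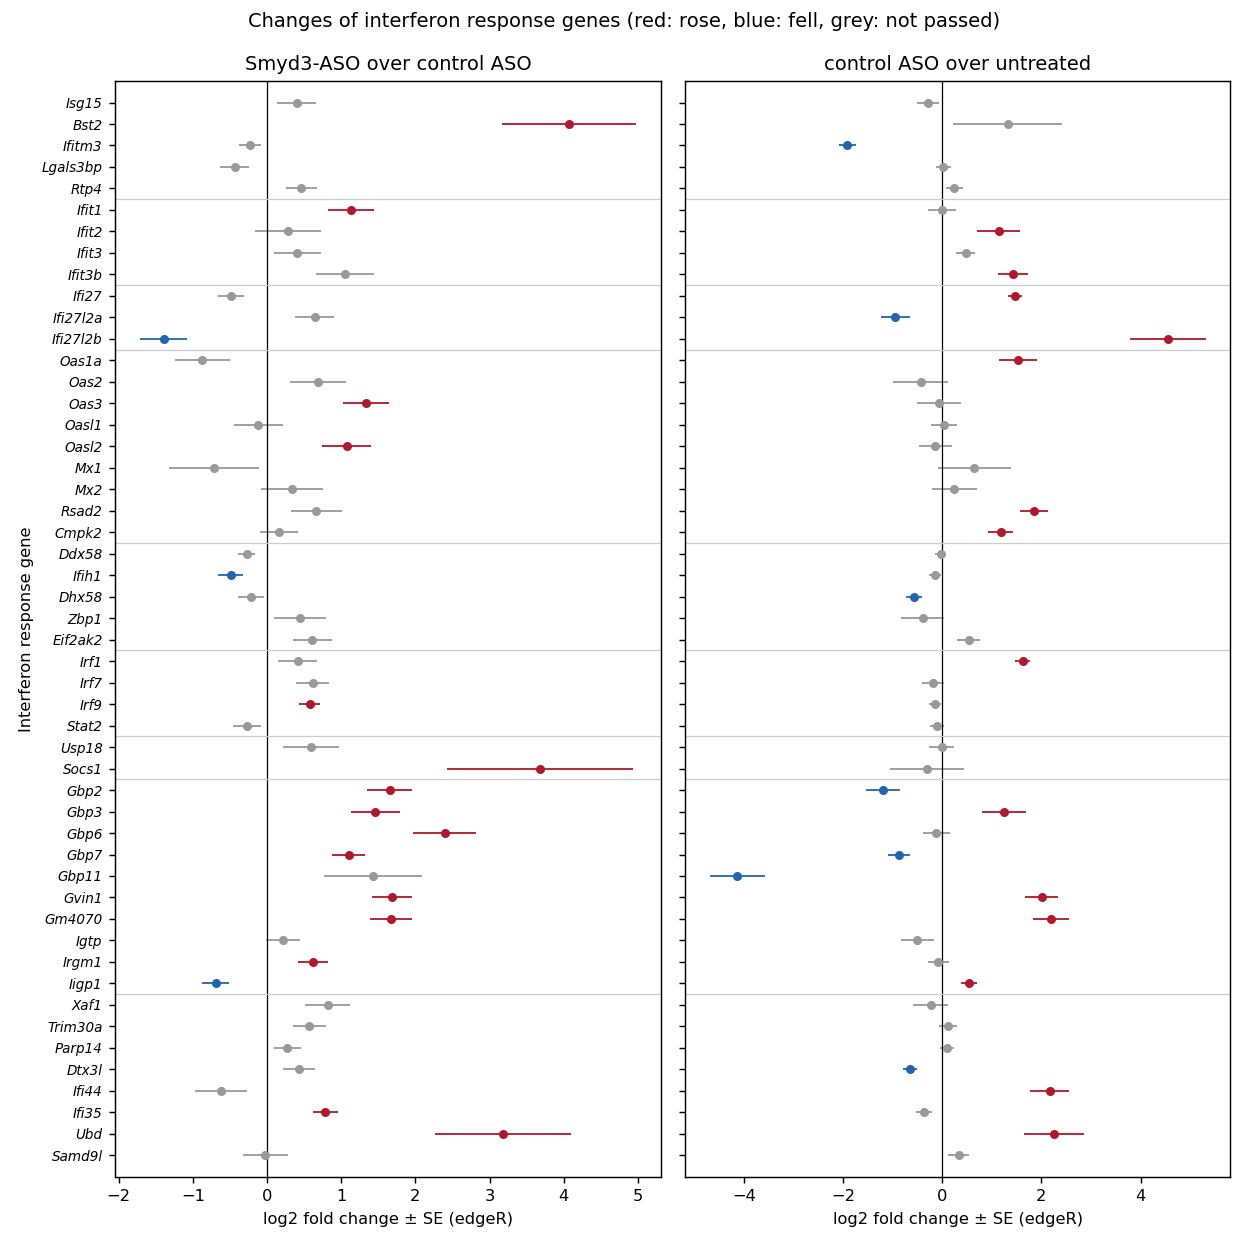
Log2 fold change with its SE (horizontal axis) of each of the 50 genes (rows, grouped by role) in 2 comparisons, Smyd3-ASO over control ASO and control ASO over untreated, with red for genes that rose, blue for genes that fell and grey for genes that did not pass. In the first panel 15 genes are red and 3 blue, in the second 14 are red and 7 blue.

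Interferon-induced genes outside the 50 were read from a list of 42, of which 41 were tested. Like the 50, they were chosen with earlier results of these data known, so their counts are no independent check. In Smyd3-ASO over control ASO 14 rose and 0 fell, with a median of 0.50, where 13.3% of all genes tested rose and 12.9% fell. Slfn8, a Schlafen family gene, had 0.429 ± 0.293 CPM (SD) in the 6 control-ASO and 2.87 ± 0.671 in the 6 Smyd3-ASO mice, and rose by 2.64 (SE 0.37, adjusted p = 2.55e-04). Parp9, an ADP-ribosyltransferase family gene, rose by 1.14 (SE 0.17) and Gbp4 by 1.87 (SE 0.36), each without overlap. Gbp10, at 39.5 ± 21.3 against 7.48 ± 1.79 CPM, had nearly the levels of Gbp6, and how reads were shared between such copies is not given in the sources used here. Trim25, the ubiquitin ligase of the RNA sensor RIG-I, rose by 1.39 (SE 0.24). Parp9 lies opposite the member Dtx3l, which was at 0.43 (adjusted p = 0.15).

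Neighbouring responses were read from further lists in the same comparison, in which 13.3% of all genes tested rose and 12.9% fell. Of 21 antigen presentation genes 3 rose and 0 fell. Psme2, a proteasome activator subunit, went from 67.1 ± 8.28 to 139 ± 21.2 CPM (log2 1.04, SE 0.13, adjusted p = 1.21e-04). H2-K1, a class I heavy chain, rose by 0.83 (SE 0.22), and with a replicate block its adjusted p was 0.0549. Of 5 interferon-induced chemokines 1 rose, Ccl5 (log2 1.18, SE 0.38, adjusted p = 0.0359), which did not pass without any 1 of 8 mice (up to 0.074). Cxcl11 stood at 1.34 ± 0.515 CPM against 2.44 ± 1.05 (log2 -0.90, SE 0.33, adjusted p = 0.0567) and passed with DESeq2 (0.035), limma voom (0.0421) and equal depths (0.0478). Cxcl10, a chemokine induced by interferon gamma, stood at 7.40 ± 5.55 CPM against 6.21 ± 5.56 (SD, n = 6 each). Of 14 acute-phase genes, which respond to interleukin 6, 3 rose. Orm1 and Orm2 rose by 2.36 and 3.16, Orm2 by 4.01 without control-ASO mouse 1, and with a replicate block the adjusted p of Orm1 was 0.0507. Saa3 rose by 4.94, but without Smyd3-ASO mouse 3 it was at 1.58 (adjusted p = 0.156). In the same comparison the monocyte marker genes Lyz2, Itgam and Ly6c2 rose (log2 1.07, 1.62 and 1.19, 3 of 7 markers, with Itgam lost without Smyd3-ASO mouse 4 at 0.0505 and with a replicate block at 0.0511, and Ly6c2 with equal depths at 0.083), 5 of 10 hepatocyte markers fell, and 0 of 3 T cell and 0 of 2 natural killer cell markers tested passed. Siglech, a marker of the plasmacytoid dendritic cells that make type I interferon, rose from 0.519 ± 0.258 to 1.38 ± 0.787 CPM (log2 1.41, SE 0.43, adjusted p = 0.0266), but not without any 1 of 5 mice (up to 0.0738), with a replicate block (0.0606) or with equal depths (0.0577), and 1 of the 3 tested markers of that cell rose. The summed level of the 6 listed markers was not higher, with a median of 28.3 CPM (4.76 to 64.7) under Smyd3-ASO and 37.8 CPM (12.7 to 68.6) under control ASO. Most of that sum was Ly6d, at means of 30.1 and 36 CPM (SD 28.2 and 26.1, n = 6 each). The part of these cells in the change of the interferon genes was not tested.

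Control ASO over untreated compares DEN livers that carried injections with untouched livers of the same day. Here 14 members rose, 7 fell and 29 did not pass, where 45.9% of all genes were called, 23.7% up and 22.2% down. The median change of the members was 0.01 against 0.06 over all genes. Without overlap were 9 members above and 3 below, against 13.8 and 13.8% of all genes. With library totals in place of composition scaling, all genes shifted by a median of 0.90 and 32 members rose and 2 fell, so the split between risen and fallen members depends on the scaling.

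The members that rose included the Ifi27 pair, Irf1 and the giant GTPases. Ifi27l2b went from 1.29, 0.474, 0.935, 0.581 and 10.4 CPM in untreated mice 1 to 5 to 39.5 to 86.7 under control ASO, without overlap (log2 4.55, SE 0.76, adjusted p = 9.28e-04). Without untreated mouse 5 the change was 6.25. Ifi27 rose from 84.6 ± 13.6 (SD, n = 5) to 233 ± 28.1 CPM (n = 6), also without overlap (log2 1.46, SE 0.14), while the third of this family, Ifi27l2a, fell (log2 -0.95, SE 0.29, adjusted p = 0.0153), which did not hold with library totals (-0.11, adjusted p = 0.771) or with equal depths (-0.67, 0.169). Irf1 stood at 13.4 to 16.3 CPM in untreated and 32.5 to 60.3 in control-ASO mice (log2 1.62, SE 0.16, adjusted p = 2.26e-06). Gm4070 and Ifi44, another interferon-induced gene, rose by 2.19 and 2.17 (SE 0.36 and 0.39), both without overlap. Rsad2 rose from 2.65 to 6.88 CPM up to 10.9 to 23.6 (log2 1.85, SE 0.28). Ubd rose from 0 to 0.537 CPM to 0.673 to 3.00 (log2 2.26, SE 0.60), a call that ended with all 4 groups in 1 fit (adjusted p = 0.124) and with equal depths (0.135).

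Ifitm3, a membrane protein that blocks virus entry (chromosome 7), had 1252 to 2007 CPM in untreated mice and 317 to 521 in all 16 DEN mice. Against untreated it changed by log2 -1.92 (SE 0.17) under control ASO, -2.16 (SE 0.19) under Smyd3-ASO and -2.08 (SE 0.17) in P133, each without overlap. Gbp11 stood at 41.8, 35.1, 44.0, 40.4 and 11.2 CPM in untreated mice 1 to 5 and at 0.354 to 4.79 under control ASO (log2 -4.13, SE 0.56, adjusted p = 2.06e-04). Both genes fell under every alternative that was run. Gbp2, Gbp7, Dhx58 and Dtx3l fell by 1.20, 0.87, 0.57 and 0.65, but with library totals Gbp2 and Gbp7 did not pass (-0.38 and -0.02) and Dhx58 and Dtx3l turned to 0.29 and 0.19. Bst2 did not pass (1.32, adjusted p = 0.359), and without control-ASO mouse 4 it was at -0.28. Among other genes of the pathway, Mavs fell from 75.3 ± 7.26 (SD, n = 5) to 18.5 ± 2.90 CPM (n = 6; log2 -2.02, SE 0.13), and Ifngr1 and Irf2 rose by 0.72 and 1.18. Of 5 chemokines 4 rose, where 23.7% of all genes tested rose, with Cxcl10 at 2.12 (SE 0.60) and, without control-ASO mouse 1, at 1.47.

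P133 over untreated compares mice of different age as well as treatment. Here 7 members rose, 12 fell and 31 did not pass, where 31.6% of all genes were called, 15.1% up and 16.6% down, and the median of the members was -0.28 against 0.00. Without overlap were 6 members above and 9 below, against 12.6 and 14.5% of all genes. With library totals 12 rose and 5 fell, next to a shift of all genes by a median of 0.59. Ifit1 stood at 1.89, 1.19, 2.88 and 2.21 CPM in P133 mice 1 to 4 and at 3.32 to 10.9 in untreated mice, without overlap (log2 -1.83, SE 0.35, adjusted p = 0.00122). Usp18 fell by 1.72 (SE 0.34) and Xaf1, a proapoptotic induced gene, by 1.94 (SE 0.46). Zbp1, a nucleic acid sensor of cell death, fell by 2.01 (SE 0.60, adjusted p = 0.0277), which did not hold with library totals (adjusted p = 0.0704), without the filter (0.0765) or without any 1 of P133 mice 2 and 3 and untreated mouse 4 (up to 0.076).

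Against this direction, Gvin1 and Gm4070 rose in P133 by 1.81 and 2.06 (SE 0.24 and 0.23), each without overlap. Bst2 stood at 64.0, 73.1, 43.5 and 63.8 CPM in P133 mice 1 to 4 and at 26.0, 1.90, 2.49, 5.08 and 1.60 in untreated mice 1 to 5. It rose by 3.01 (SE 0.85, adjusted p = 0.0325) and by 4.47 without untreated mouse 1. The call ended without any 1 of the other 8 mice (adjusted p up to 0.0734), without the filter (0.0518) and with a replicate block (0.0679). All 4 P133 mice thus lay between 5 of the control-ASO mice, at 4.87 to 7.55 CPM, and 5 of the Smyd3-ASO mice, at 261 to 491. Ubd rose by 1.97 (SE 0.65, adjusted p = 0.0309), a call that ended with all 4 groups in 1 fit (0.288) and with equal depths (0.157).

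Control ASO over P133 sets later against earlier DEN livers, with the injections given in between. In this comparison 14 members rose, 1 fell and 35 did not pass, where 27% of all genes were called, 14.4% up and 12.6% down, and the median of the members was 0.35 against 0.03. Without overlap were 10 members above and 1 below, against 11.3 and 9.99% of all genes. Ifi27l2b had 3.11 to 5.53 CPM in P133 and 39.5 to 86.7 under control ASO (log2 3.88, SE 0.27, adjusted p = 2.12e-06). Ifi44 had 0.631 to 2.22 and 4.53 to 17.7 CPM (log2 2.67, SE 0.52), and Ifit1 and Usp18 rose by 1.83 and 1.72 (SE 0.31 and 0.34), all without overlap. Oas1a rose by 1.87 (SE 0.43, adjusted p = 0.00669), but not with limma voom (0.0892), and 56.1% of the words at its 3' end also occur in other genes, most often in Oas1g. Dtx3l, a ubiquitin ligase of the DNA damage response, was the member that fell (log2 -0.77, SE 0.15). With library totals 23 members rose, next to a shift of all genes by 0.28.

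Smyd3-ASO over untreated called the most members, with 22 up, 5 down and 23 not passed, where 47.6% of all genes were called, 24.4% up and 23.2% down. The median of the members was 0.56 against 0.06, and 11 members lay above without overlap and 3 below, against 13.9 and 14.6% of all genes. With library totals 40 rose and 2 fell, next to a shift of all genes by 0.96. All 4 Ifit genes rose, Ifit3b most, from 1.30 to 3.01 CPM in untreated mice to 4.25 to 20.9 (log2 2.45, SE 0.44, adjusted p = 6.94e-04). The calls of Ifit1, Ifit2 and Ifit3 ended with limma voom (adjusted p = 0.0597, 0.163 and 0.132) and with a replicate block (0.169, 0.0706 and 0.127). Ubd had the largest rise (log2 5.42, SE 1.32, adjusted p = 0.00662), which did not hold with limma voom (4.38, adjusted p = 0.147), followed by Bst2 (5.38, SE 0.98), Gm4070 (3.85, SE 0.19) and Gvin1 (3.68, SE 0.20). Without untreated mouse 1 the change of Bst2 was 6.83. Those that fell were Ifitm3, Gbp11 (log2 -2.72, SE 0.60) and the 3 RNA sensors, Dhx58 by 0.80, Ifih1 by 0.65 and Ddx58 by 0.32, but with library totals the sensors stood at 0.12, 0.24 and 0.59. The call of Ddx58 also ended without any 1 of 9 of the 11 mice (adjusted p up to 0.0906). The 3 comparisons with untreated livers share the same 5 mice, and the 2 with control ASO on 1 side share those 6, so their values are given side by side and are not independent.

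Across the 5 comparisons, Gvin1, Gm4070, Ifi27, Irf1 and Ubd rose in 4, and Ifitm3, Gbp11, Dhx58 and Ifih1 fell in 3, with Ifih1 also risen in control ASO over P133. The 5 that rose most often did not rise in the same 4, since Ifi27 and Irf1 did not pass under Smyd3-ASO against control ASO and Gvin1, Gm4070 and Ubd did not pass in control ASO over P133. The calls of Gvin1, Gm4070, Ifi27, Ifitm3 and Gbp11 held under the alternatives that were run and without each single mouse. Irf1 in P133 did not pass without P133 mouse 3 or untreated mouse 4 (adjusted p up to 0.123), with all 4 groups in 1 fit (0.159) or with a replicate block (0.0636). Dhx58 stood at 0.29, 0.12 and 0.0820 with library totals, above untreated in all 3 comparisons in which it fell. Each of the 4 calls of Ubd and the 4 of Ifih1 ended under at least 1 alternative.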

How the data were processed

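RNA from 21 mice was sequenced as 35 libraries with the QuantSeq 3' FWD kit on a NextSeq 500, per the labels' protocols. The deposited table of raw counts per gene has 1 column per mouse, in which the authors merged the 1 to 3 libraries of a mouse. HISAT2 2.1.0, mm10 and DESeq are named per the submitters' processing notes, and the counting program, annotation and use of strand are not given in the sources used here. The deposited normalized score is the raw count divided by a size factor per mouse (100% of values within 0.51) and was not used in tests.

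Gene symbols came from GENCODE vM21 (all 55413 identifiers matched). Counts were filtered (filterByExpr over the 4 groups), scaled with TMM and tested for each pair of groups with the quasi-likelihood test of edgeR 4.0.16 in R 4.3.3, two-sided, with Benjamini-Hochberg adjustment over 15297 genes and a threshold of 0.05. The p-values measure the spread between these mice. Log2 CPM used a prior count of 2. Alternatives were RLE size factors, library totals, no filter, DESeq2 1.42.0, limma voom 3.58.1, all 4 groups in 1 fit, a replicate block, counts thinned to the lowest total, leaving out each mouse and, chosen after seeing the data, leaving out both control-ASO mouse 4 and Smyd3-ASO mouse 6. The fits were tested on simulated data. The smallest chi-square per degree of freedom between mice of 1 group was 24.2, so no mouse was taken as a duplicate of another in its group. Single libraries, and mice of different groups, were not compared in this way.

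The 50 members and the other lists were chosen with earlier results of these data known. Genes given with values were the 4 members called up and the 4 called down with the largest change in each comparison, members in which 1 mouse stood more than 2-fold above the next, the highest member of each role, and the 2 genes with the smallest adjusted p of each other list, plus Ifnar1, Ifngr1 and Cxcl10. A further gene of that rule is not reported here. Other genes named with values were chosen after their values were seen.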

Additional observations from a re-analysis of the deposited data

Results flagged for a closer look

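For each of the 50 members, and for the mean level per mouse over them, in each of the 4 groups, the highest or lowest mouse was compared with the spread of its group. Dixon's criterion was used at its 95% critical value, where chance gives about 5% of sets for independent, normally distributed values. Of 204 such sets of mice, 18 held a value that stood apart. In the Smyd3-ASO group these were Socs1 at 37.6 CPM and Stat2 at 19.2 CPM in mouse 3, Oasl1 at 9.10 CPM and Mx1 at 0.885 CPM in mouse 6, and Rtp4, low at 11.5 CPM, in mouse 4. In the control-ASO group they were Bst2 at 82.4 CPM in mouse 4 and Irgm1 at 7.63 CPM in mouse 6. In P133 they were Gbp3 at 4.21 CPM and Ifi27 at 168 CPM in mouse 3, Oas3 at 1.19 CPM in mouse 2, and Dhx58 at 65.0 CPM and Ifi44 at 0.631 CPM, both low, in mouse 1. In untreated mice they were Bst2 at 26.0 CPM and Irf7 at 49.7 CPM in mouse 1, Igtp at 49.4 CPM in mouse 3, and, in mouse 5, Gbp3 at 1.34 CPM, Ifi27l2b at 10.4 CPM and Gbp11, low, at 11.2 CPM. The members were read as CPM and come from the same mice, so no excess over chance is read from the number of such values.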

How the results depend on the processing

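Scaling by library totals gave 32 members up and 2 down in control ASO over untreated, 40 and 2 in Smyd3-ASO over untreated, 12 and 5 in P133 over untreated and 23 up in control ASO over P133, and mean levels per mouse of 1.66 under Smyd3-ASO, 1.09 under control ASO and 0.401 in P133, where the sign turned. It also turned Dhx58 and Dtx3l in control ASO over untreated to 0.29 and 0.19, Ddx58, Ifih1 and Dhx58 in Smyd3-ASO over untreated to 0.59, 0.24 and 0.12, and Lgals3bp and Dhx58 in P133 over untreated to 0.0282 and 0.0820. All 4 groups in 1 fit gave 5 members down in Smyd3-ASO over control ASO, thinned counts gave 3 down in Smyd3-ASO over untreated, and limma voom gave 2 down in control ASO over P133. The cause was not tested.

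Over the tested genes, the deviations of same-numbered mice from their group means correlated at -0.12 to 0.11. The labels do not say whether the numbers pair mice, and these correlations cannot exclude a pairing, so the main fits used none. A replicate block gave 13 members up and 2 down in Smyd3-ASO over control ASO, 14 up in Smyd3-ASO over untreated, 4 up in P133 over untreated and 2 down in control ASO over P133.

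Without single mice, members called ran from 12 to 21 up and 2 to 6 down in Smyd3-ASO over control ASO, 12 to 15 and 7 to 8 in control ASO over untreated, 17 to 26 and 4 to 7 in Smyd3-ASO over untreated, 4 to 9 and 11 to 13 in P133 over untreated, and 11 to 17 and 1 to 2 in control ASO over P133. The 4 up arose without untreated mouse 4 and the 2 down without control-ASO mouse 4. Bst2 in control ASO over untreated ran from -0.28, without control-ASO mouse 4, to 2.79. Mean levels ran from 0.782 to 0.989 under Smyd3-ASO, 0.236 to 0.382 under control ASO and -0.207 to -0.0846 in P133. Without both control-ASO mouse 4 and Smyd3-ASO mouse 6, chosen after seeing the data, 11 members rose and 2 fell in Smyd3-ASO over control ASO. A longer form of the response element (AGTTTC, any pair of letters, TTTC) was in 35.3% of the 34 genes with a window (95% interval 19.7 to 53.5%, counting error only) and in 0.303% of all 27025 genes. The P133 mice had the lowest totals, which limits what can be seen of members with few counts there.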
